A study of Mus musculus with 10 samples.

Results

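The genes described here are 10 immediate early genes outside the AP-1 family: the transcription factors Egr1, Egr2 and Egr3, the orphan nuclear receptors Nr4a1, Nr4a2 and Nr4a3, the early response genes Ier2 and Ier3, the phosphatase gene Dusp1 and the mRNA decay factor gene Zfp36. They were chosen by name, not by a measured difference, but with earlier results of these data known. Each is represented by the probe set that carries its symbol alone. All 10 were found among 22180 measured genes, and all 10 had a single such probe set. The cells were primary mouse embryonic fibroblasts (MEFs), which grow out of minced connective tissue, here the dorsal skin of E13.5 embryos. Total RNA from 5 samples of Zbtb4 knock-out cells (KO) and 5 samples of wild-type cells (WT) was hybridised to 1-colour Affymetrix arrays, 1 array per sample, and the study asked which transcripts depend on Zbtb4, a zinc finger protein that binds methylated DNA. Which exons of Zbtb4 are deleted, whether the deletion is constitutive and whether each array stands for a separate embryo is not stated in the labels. The p-values therefore reflect the spread among these arrays, which may be technical. No serum starvation, stimulation or time point is named in the labels, and the values are levels in the cultures as they were harvested.

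Immediate early genes are transcribed within minutes of a growth factor, serum or stress signal, without new protein synthesis, and their transcripts decay quickly. In fibroblasts the signal runs from Ras to the ERK kinases and from cAMP and calcium to CREB. It reaches the promoters through serum response factor with its ternary complex partners, which bind CArG boxes, and through CREB, which binds the cAMP response element. The Egr proteins are zinc finger factors that bind a GC-rich site, the Nr4a proteins are nuclear receptors that act without a known hormone, Dusp1 dephosphorylates MAP kinases, and Zfp36 (tristetraprolin) binds AU-rich elements and shortens the life of messages that carry them.

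The promoters of 6 of these genes are shown because their windows hold matches to the elements through which serum and cAMP signals are known to act. Because they were chosen for their matches, the shares over all windows given below are a description and no test. Sequences are those of RefSeq, build GRCm38.p6, from 250 bases before to 50 bases after the annotated start, 5′ to 3′ on the strand of the gene. Windows of 7 of the 10 genes were read for matches. Egr3 and Ier2 had no entry, and Egr1 was left out because sequence of its chromosome, 18, is not printed here. Capitals mark matches, on either strand, to the CArG box, to TGACGTCA (the full cAMP response element), to TGACG (its core, which the full element contains in both orientations) and to GCGTGGGCG or GCGGGGGCG (Egr sites). The windows are chr15:101266596-101266895 (plus strand) for Nr4a1, chr2:57123954-57124253 (minus strand) for Nr4a2, chr4:48045055-48045354 (plus strand) for Nr4a3, chr17:26508423-26508722 (minus strand) for Dusp1, chr7:28379179-28379478 (minus strand) for Zfp36 and chr10:67537619-67537918 (plus strand) for Egr2.
Nr4a1: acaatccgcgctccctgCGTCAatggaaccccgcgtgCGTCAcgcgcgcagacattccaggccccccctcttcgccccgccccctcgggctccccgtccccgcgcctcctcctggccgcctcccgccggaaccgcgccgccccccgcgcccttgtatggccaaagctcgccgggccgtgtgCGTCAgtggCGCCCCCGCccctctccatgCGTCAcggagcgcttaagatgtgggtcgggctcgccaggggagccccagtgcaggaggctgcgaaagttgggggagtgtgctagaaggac
Nr4a2: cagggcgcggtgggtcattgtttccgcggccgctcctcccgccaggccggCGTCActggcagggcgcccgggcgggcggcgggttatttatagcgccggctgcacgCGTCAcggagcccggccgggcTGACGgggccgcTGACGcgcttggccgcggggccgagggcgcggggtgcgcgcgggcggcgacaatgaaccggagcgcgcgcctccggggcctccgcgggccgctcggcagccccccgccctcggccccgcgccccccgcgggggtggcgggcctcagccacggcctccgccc
Nr4a3: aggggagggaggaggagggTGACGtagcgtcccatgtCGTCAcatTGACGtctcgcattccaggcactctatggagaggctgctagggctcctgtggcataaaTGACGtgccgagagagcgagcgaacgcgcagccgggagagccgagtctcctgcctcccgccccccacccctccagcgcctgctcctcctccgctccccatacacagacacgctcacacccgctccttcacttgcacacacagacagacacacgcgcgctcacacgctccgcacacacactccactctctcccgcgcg
Dusp1: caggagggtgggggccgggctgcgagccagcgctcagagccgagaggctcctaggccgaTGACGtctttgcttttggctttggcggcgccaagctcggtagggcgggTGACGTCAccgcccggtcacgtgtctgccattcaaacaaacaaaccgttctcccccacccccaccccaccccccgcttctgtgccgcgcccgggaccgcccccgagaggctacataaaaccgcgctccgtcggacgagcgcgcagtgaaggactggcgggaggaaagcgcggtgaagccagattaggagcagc
Zfp36: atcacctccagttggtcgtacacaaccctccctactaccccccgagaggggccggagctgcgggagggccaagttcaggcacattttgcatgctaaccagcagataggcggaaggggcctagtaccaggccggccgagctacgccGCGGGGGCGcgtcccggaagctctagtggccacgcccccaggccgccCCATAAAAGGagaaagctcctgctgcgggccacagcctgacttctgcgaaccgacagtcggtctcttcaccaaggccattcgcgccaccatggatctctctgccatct
Egr2: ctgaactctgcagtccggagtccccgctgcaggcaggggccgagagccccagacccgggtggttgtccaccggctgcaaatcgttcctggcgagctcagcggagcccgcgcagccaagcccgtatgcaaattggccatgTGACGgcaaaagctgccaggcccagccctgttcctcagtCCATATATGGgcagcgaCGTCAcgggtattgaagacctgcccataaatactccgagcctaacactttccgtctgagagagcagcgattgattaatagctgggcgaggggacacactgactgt

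Each of the 3 Nr4a windows held 4 matches to TGACG and no CArG box of the strict form CCWWWWWWGG (W is A or T). Only that form was read, and CArG-like sites that differ from it by a base were not searched for. Over all 32851 promoter windows of the same length, 20.8% held at least 1 match to TGACG and 0.231% held at least 4. In Dusp1, which held 3 such matches, 2 of them overlap in the full element TGACGTCA at 143 bases before the start, a sequence found in 1.79% of windows. Zfp36 had a CArG box at 58 bases and an Egr site at 105 bases before its start. Egr2 had a CArG box at 72 bases before the start shown, and 4 of its 5 annotated windows, 3 of which overlap, held one, against 1.63% of all windows. Nr4a1 also had an Egr site, at 60 bases before the start, and such sites were in 3.47% of windows. A match is a description of letters and does not show that a factor was bound in these cells. The window of Ier3 held no match to any of these motifs, which says only that these letters are not in that window.

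The arrays were alike in overall level, with medians of the deposited log2 values from 3.89 to 3.93, and any pair correlated with r from 0.989 to 0.994 across genes, which are not independent replicates. The targeted gene, Zbtb4, ran from 5.04 to 5.76 on the KO arrays and from 5.94 to 6.23 on the WT arrays, a log2 difference of -0.62 (limma, adjusted p = 0.628; exact permutation p = 0.00794, the smallest that 5 against 5 arrays allow). Of 10 fibroblast markers, 9 lay above the upper quartile of every array, and 6 of 8 endothelial markers lay below the median of every array. Among the 8, 7 had a higher and 1 a lower mean in KO cells, where 49.3% of all genes were lower. Of the 7, 2 had an unadjusted limma p under 0.05 (3.25% of all genes were higher at that level), and 0 passed after adjustment. In the skeletal muscle list, 2 of 6 markers lay above the upper quartile of every array and 1 below the median. The epithelial list had 1 of 5 measured markers above and 3 below, and the 1 erythroid marker measured lay below. The 10 macrophage markers had mean levels from 4.05 to 5.48 on the KO arrays and from 4.34 to 4.70 on the WT arrays, with the highest value on KO array 3 and the lowest on KO array 5. In bulk samples, fewer cells of a type and less RNA per cell cannot be told apart. The number of arrays limits the precision.

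No early serum gene passed the threshold between genotypes. Of the 10 genes, 0 had a limma adjusted p under 0.05, as did 0.0% of all genes, and their adjusted p-values ran from 0.821 to 0.973. At an unadjusted limma p under 0.05 there were 3, Nr4a1, Ier2 and Dusp1, where 5.98% of all genes reached that level. Of the 3, 2 were lower in KO cells (2.73% of all genes) and 1 was higher (3.25% of all genes), and by the exact permutation test none of the 10 genes came under 0.05. Mean levels were lower on the KO arrays for 7 of the 10 genes, against 49.3% of all genes, and higher for Egr2, Nr4a3 and Dusp1. The median log2 difference was -0.0766, beside 0.00197 over all genes. The groups of arrays overlapped for every gene, so the count of 0 separated genes stands beside 0.987% of all genes. Differences of at least 0.2 in size were found for 4 genes, Egr2, Nr4a1, Ier2 and Dusp1, and for 11.0% of all genes, and the 4 did not share a direction. For 9 of the 10 genes the 95% interval lay within a 1.5-fold change either way. The exception was Egr2, whose interval reached 1.54-fold higher in KO cells.

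**Figure D1:**
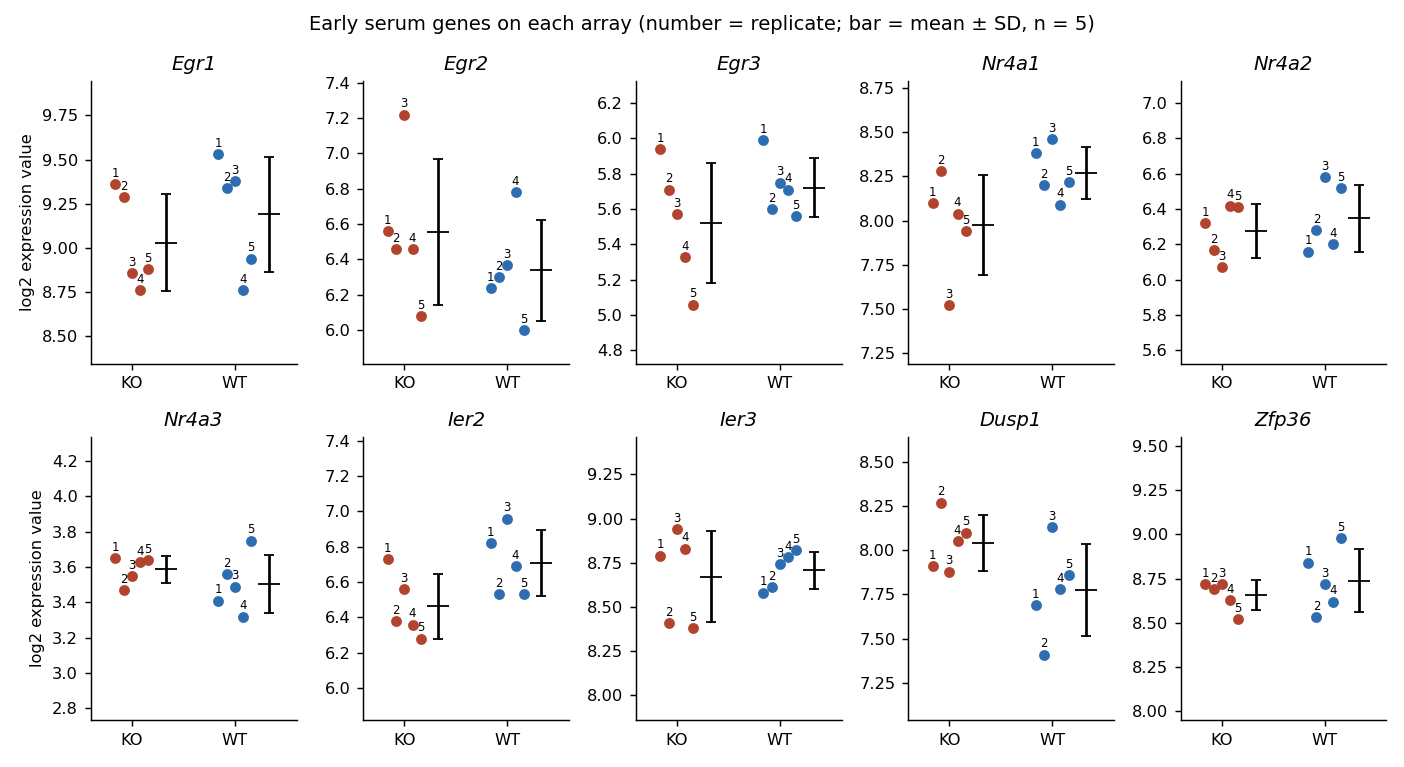
Deposited log2 expression value (y axis) of each of the 10 early serum genes on the KO arrays (left in each panel) and the WT arrays (right). Points are arrays, numbered by replicate, and bars are the mean ± SD of 5 arrays; every panel spans the same number of log2 units, and the groups overlap in all 10 panels.

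Among the Nr4a receptors, which bind DNA as monomers or dimers and respond to growth factor and cAMP signals, Nr4a1 differed most. Nr4a1 (Nur77) had log2 values of 8.10, 8.28, 7.52, 8.04 and 7.94 on KO arrays 1 to 5, against 8.38, 8.20, 8.46, 8.09 and 8.22 on WT arrays 1 to 5. KO array 3 was the lowest of all, and 3 KO arrays lay below every WT array, while the other two lay within the WT range. The means were 7.98 ± 0.28 in KO and 8.27 ± 0.15 in WT cells (SD, n = 5 each), a log2 difference of -0.30 (standard error 0.127, 95% interval -0.57 to -0.02), or a 1.23-fold lower level in KO cells (limma unadjusted p = 0.0365, adjusted p = 0.821; exact permutation p = 0.0635). Without KO array 3 the difference was -0.18.

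Nr4a2 (Nurr1), a receptor known for its role in dopamine neurons and also induced in fibroblasts, ran from 6.07 to 6.42 with a median of 6.32 on the KO arrays and from 6.16 to 6.58 with a median of 6.28 on the WT arrays. Its log2 difference was -0.07 (95% interval from -0.30 to 0.16; limma adjusted p = 0.933). Nr4a3 (Nor1), the third receptor of the family, ran from 3.47 to 3.65 on the KO arrays and from 3.32 to 3.75 on the WT arrays, so that the KO values lay inside the WT range. It was the only gene of the 10 that was below the median of every array, where it is not known how far the signal stands above background, and its difference was 0.08 (95% interval from -0.11 to 0.27; limma adjusted p = 0.898). The 3 Nr4a promoters shown above share 4 TGACG matches each, and their measured differences were -0.30, -0.07 and 0.08.

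The Egr factors went both ways. Egr1, which serum response factor induces and which in turn activates growth and matrix genes, had log2 values of 9.36, 9.29, 8.86, 8.76 and 8.88 on KO arrays 1 to 5 and of 9.53, 9.34, 9.38, 8.76 and 8.94 on WT arrays 1 to 5. The lowest value rounded to 8.76 in both genotypes, and the other KO values lay inside the WT range. The means were 9.03 ± 0.28 in KO and 9.19 ± 0.32 in WT cells (SD, n = 5 each), a log2 difference of -0.16 (95% interval from -0.50 to 0.19; limma adjusted p = 0.894; exact permutation p = 0.349). Leaving out single arrays gave -0.26 (without WT array 4) to -0.0728 (without WT array 1).

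Egr3, a relative with the same kind of zinc finger domain, had log2 values of 5.94, 5.71, 5.57, 5.33 and 5.06 on KO arrays 1 to 5 and of 5.99, 5.60, 5.75, 5.71 and 5.56 on WT arrays 1 to 5. KO arrays 4 and 5 lay below every WT array and the other KO arrays among them. Its difference was -0.20 (95% interval from -0.51 to 0.12; limma adjusted p = 0.857), and -0.0821 without KO array 5.

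Egr2 (Krox20), known for hindbrain and Schwann cell development and expressed in macrophages too, had log2 values of 6.56, 6.46, 7.22, 6.46 and 6.08 on KO arrays 1 to 5 and of 6.24, 6.30, 6.37, 6.78 and 6.0 on WT arrays 1 to 5. KO array 3 stood above all others, and WT array 4 was next. The difference was 0.22 (95% interval from -0.18 to 0.62; limma adjusted p = 0.874; exact permutation p = 0.381), and it came to 0.0526 without KO array 3.

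**Figure D2:**
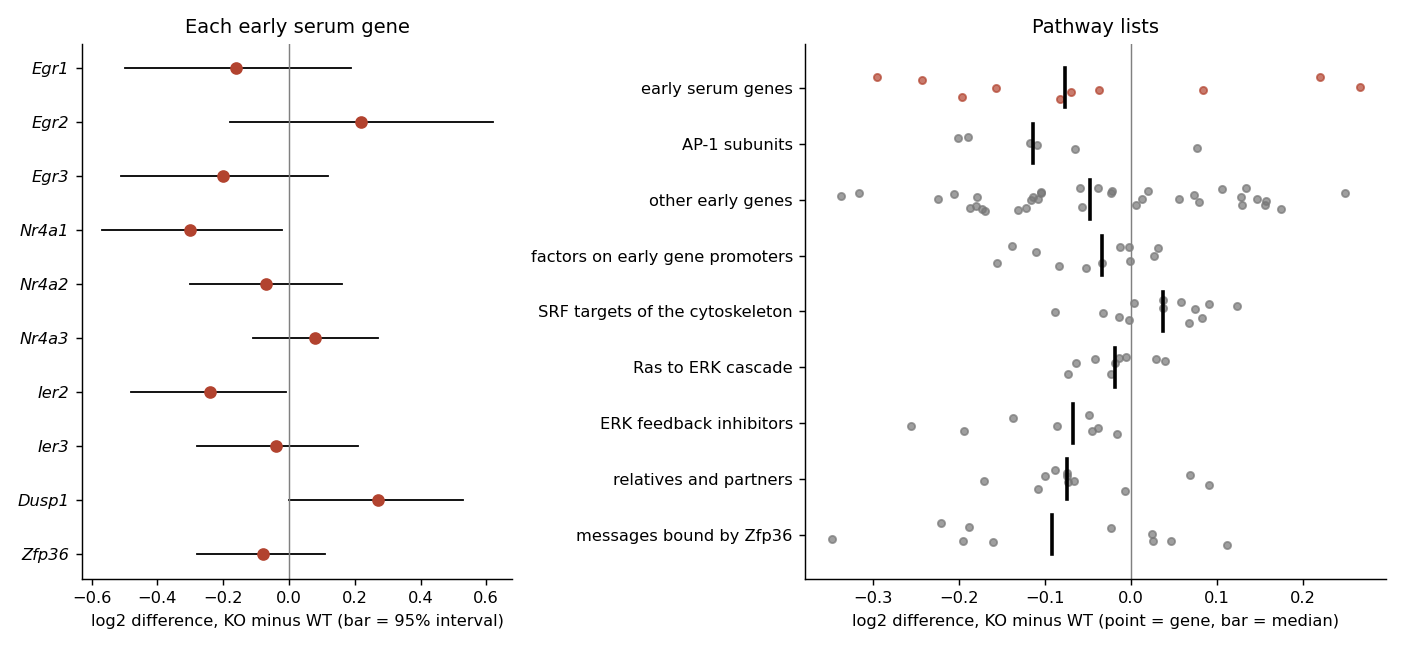
Left, log2 difference KO minus WT (x axis) of each early serum gene, with points for the estimate and bars for the 95% interval; only the intervals of Nr4a1, Ier2 and Dusp1 leave out 0, and none of the 3 genes passed after adjustment. Right, the same differences (points) and their median (bar) for the early serum genes and 8 pathway lists; the median of the early serum genes is -0.0766.

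Of the early response genes, Ier2, a nuclear protein gene induced by growth factors, had log2 values of 6.73, 6.38, 6.56, 6.36 and 6.28 on KO arrays 1 to 5, against 6.82, 6.53, 6.96, 6.69 and 6.53 on WT arrays 1 to 5. KO arrays 2, 4 and 5 lay below every WT array, and KO arrays 1 and 3 within the WT range. The means were 6.46 ± 0.18 in KO and 6.71 ± 0.19 in WT cells (SD, n = 5 each), a log2 difference of -0.24 (standard error 0.109, 95% interval -0.48 to -0.01), or 1.18-fold lower in KO cells (limma unadjusted p = 0.0447, adjusted p = 0.83; exact permutation p = 0.0873). Ier3 (IEX-1), a gene of stress and survival signalling, ran from 8.38 to 8.94 on the KO arrays and from 8.58 to 8.82 on the WT arrays. Its KO values fell on both sides of the WT range, with 2 below and 2 above it, and the difference of -0.04 (95% interval from -0.28 to 0.21; limma adjusted p = 0.973) turned to 0.0275 without KO array 2 and to 0.0345 without KO array 5.

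Of the feedback genes, Dusp1 and Zfp36, neither passed. Dusp1 (MKP-1), which inactivates p38, JNK and ERK kinases, had log2 values of 7.91, 8.27, 7.88, 8.05 and 8.10 on KO arrays 1 to 5, against 7.69, 7.41, 8.13, 7.78 and 7.86 on WT arrays 1 to 5. All 5 KO arrays lay above the WT median, and WT array 3 was the only WT array above any KO array. The means were 8.04 ± 0.16 in KO and 7.77 ± 0.26 in WT cells (SD, n = 5 each), a log2 difference of 0.27 (standard error 0.123, 95% interval 0.000875 to 0.53), or 1.20-fold higher in KO cells (limma unadjusted p = 0.0494, adjusted p = 0.83; exact permutation p = 0.0873). Without WT array 2 it was 0.17, and without WT array 3, when the groups no longer overlapped, 0.35.

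Zfp36 was the steadiest of the 9 genes that lay above the median of every array. It ran from 8.52 to 8.72 with a median of 8.69 on the KO arrays and from 8.53 to 8.98 with a median of 8.72 on the WT arrays, and the difference was -0.08 (95% interval from -0.28 to 0.11; limma adjusted p = 0.904), or -0.0237 without WT array 5. The highest 2 of the 10 values were WT arrays 5 and 1.

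The early serum genes varied more between arrays of a genotype than most genes did. The standard deviation within genotypes was above that of the median gene for 8 of the 10, with a median of 0.205 log2 units, against 0.162 over all genes. Egr2 had the largest, 0.356, which placed it at the 96.8th percentile of all genes, followed by Egr1 with 0.300 at the 92.8th and Egr3 with 0.267 at the 88.6th. Nr4a3 and Zfp36, at the 28.2nd and 35.6th percentiles, were the exceptions. Spread depends on level and probe quality, which these percentiles do not take into account. Over all 10 arrays the range of Egr2 was 2.34-fold and that of Zfp36 was 1.37-fold.

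The 10 genes did not all go up and down together from array to array, and 10 arrays are few for detecting shared variation. No array was high or low for all of them. KO array 1 had 9 genes above their own mean over 10 arrays and WT array 3 had 8, while KO array 5 had 3 and held the lowest value of 4 genes. The mean deviation over the 10 genes ran from -0.174 to 0.102 on the KO arrays and from -0.0674 to 0.153 on the WT arrays, with group means of -0.0258 ± 0.101 in KO and 0.0258 ± 0.0858 in WT (SD, n = 5 each). KO array 3 held both extremes, with the highest Egr2 and Ier3 and the lowest Nr4a1 and Nr4a2 of all arrays.

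**Figure D3:**
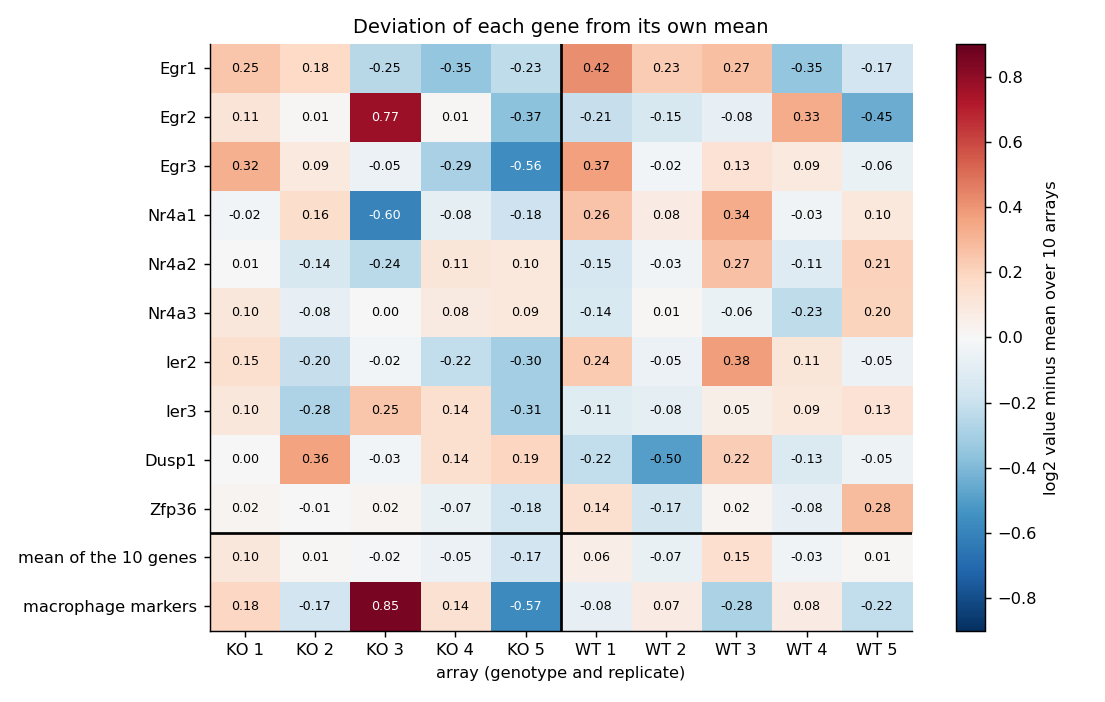
Log2 value of each early serum gene (rows) on each array (columns, KO left of the black line and WT right), minus the mean of that gene over 10 arrays; red is higher and blue lower. The rows under the line give the mean over the 10 genes, from -0.174 to 0.153, and the mean over 10 macrophage markers, from -0.574 on KO array 5 to 0.854 on KO array 3.

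Correlations over the 10 arrays were computed for all 45 pairs, of which 27 were positive and 18 negative, with a median r of 0.11. After adjustment over the 45 pairs, 0 pairs passed for Pearson's r (smallest adjusted permutation p = 0.335) and the smallest adjusted permutation p for Spearman's rho was 0.123. At an unadjusted permutation p under 0.05 there were 4 pairs by Pearson's r, 3 of them positive. Egr3 and Ier2 had the highest value, r = 0.78 (permutation p = 0.00745, adjusted 0.335) and rho = 0.85 (p = 0.00274, adjusted 0.123), with r = 0.64 without the 2 arrays farthest from the median of Egr3. Egr1 and Egr3 had r = 0.68 (permutation p = 0.0237, adjusted 0.399) and rho = 0.72 (p = 0.0234, adjusted 0.351), with r = 0.52 without 2 arrays. Egr1 and Nr4a1 had r = 0.65 (permutation p = 0.0266, adjusted 0.399) and rho = 0.78 (p = 0.0103, adjusted 0.232), with r = 0.61 without 2 arrays. These 3 pairs kept similar values, 0.74, 0.65 and 0.63, when each value was taken relative to the mean of its genotype. Egr2 stood apart from its relatives, with r = -0.29 with Egr1 and 0.20 with Egr3, and its negative r of -0.63 with Nr4a2 (permutation p = 0.0456, adjusted 0.464; rho = -0.43, p = 0.216, adjusted 0.655) came to -0.26 without KO array 3 and WT array 5. Egr2 and Nr4a1 had r = -0.65 (permutation p = 0.0516, adjusted 0.464; rho = -0.43, p = 0.218, adjusted 0.655), which came to -0.06 without the same 2 arrays. Groups of 5 arrays are too few for a correlation within each genotype.

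**Figure D4:**
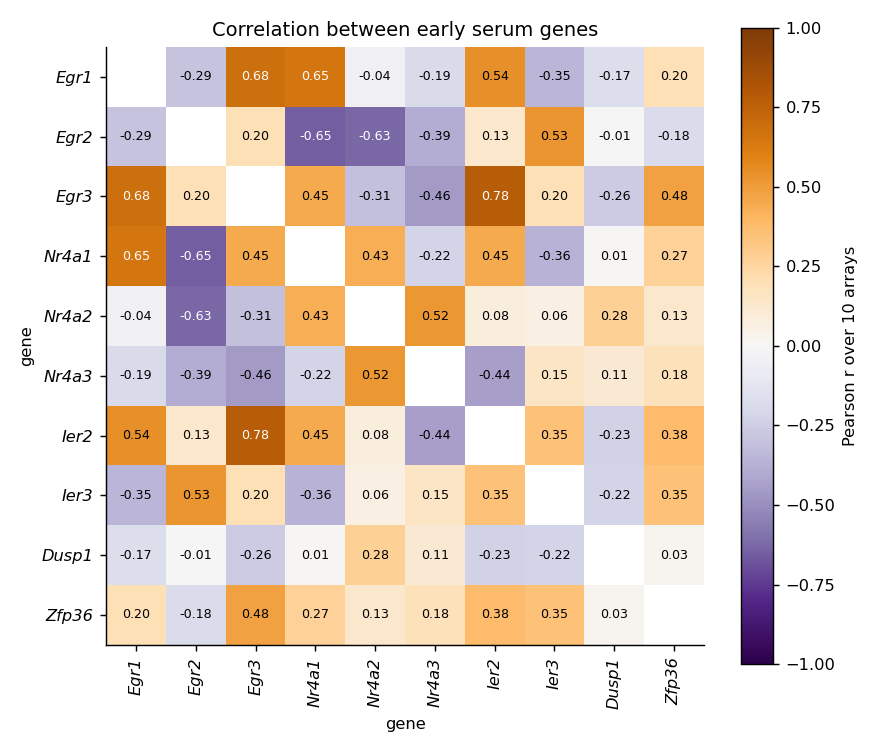
Pearson correlation over 10 arrays between each pair of early serum genes, from purple (negative) to orange (positive). The highest value is 0.78 for Egr3 with Ier2, and the row of Egr2 holds the lowest, -0.65, with Nr4a1, which is -0.06 without KO array 3 and WT array 5.

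KO array 3, the highest array for Egr2, was also the highest for the macrophage markers. Correlations with these markers were computed for all 10 genes because of that observation, so the p-values restate it and are no independent test. Egr2 and the mean deviation of the 10 macrophage markers had r = 0.87 (permutation p = 0.00281, adjusted over 10 genes 0.0281) and rho = 0.81 (p = 0.00709, adjusted 0.0709, which does not pass), and r was 0.86 relative to genotype means. Without KO arrays 3 and 5, the 2 farthest from the median, r was 0.55, so the relation rests largely on those arrays. Ier3 had r = 0.70 (permutation p = 0.0214, adjusted 0.107; rho = 0.68, p = 0.0355, adjusted 0.177), which came to 0.29 without the same 2 arrays. Nr4a1 had r = -0.65 (permutation p = 0.059, adjusted 0.147; rho = -0.48, p = 0.168, adjusted 0.419) and -0.82 without them. The other 7 genes had r from -0.60 (Nr4a2) to 0.25 (Egr3), with adjusted permutation p-values of 0.147 or more.

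Of the macrophage markers, 9 of 10 had a higher mean in KO cells and 1 a lower mean, where 49.3% of all genes were lower, and 0 passed the threshold. The KO means include KO array 3, where the mean deviation of the markers was 0.854. It ran from -0.574 to 0.185 on the other KO arrays and from -0.284 to 0.0772 on the WT arrays. For every marker but Csf1r, KO array 3 held the highest value of all arrays, so the 9 higher means draw on that array. The count without KO array 3 was not made. Lyz2, the lysozyme gene of macrophages, was at 8.41 on KO array 3 and at 5.62 on KO array 5, with the 5 WT arrays between 6.34 and 7.44. Ptprc, the pan-leukocyte marker CD45, lay below the median of every array, and Adgre1 ran from 3.45 to 4.14 on the KO arrays and from 3.02 to 3.79 on the WT arrays. No marker is at 0 on this scale. The part of other cells in the Egr2, Ier3 and Nr4a1 values was not tested.

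**Figure D5:**
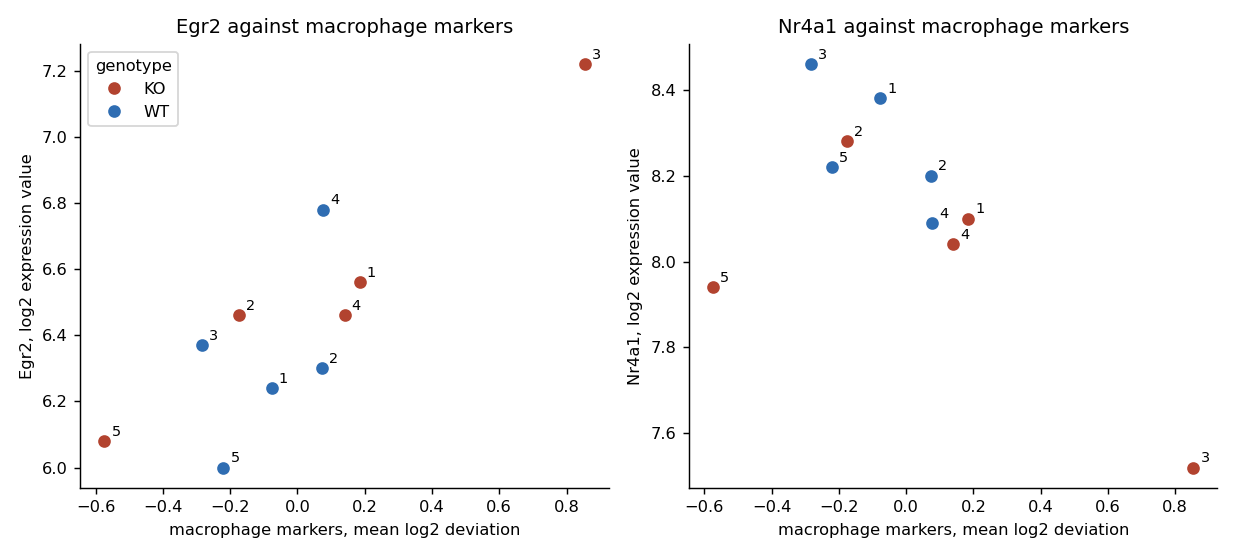
Log2 expression value of Egr2 (left) and Nr4a1 (right) on the y axis against the mean log2 deviation of 10 macrophage markers on the x axis, 1 point per array, numbered by replicate, KO in red and WT in blue. KO array 3, at 0.854 on the x axis, has the highest Egr2 value, 7.22, and the lowest Nr4a1 value, 7.52.

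The genes most like the average of the 10 early serum genes over the 10 arrays were Ubap1 and Ppip5k1 (r = 0.94 each), Stim2 (r = 0.93) and Cinp and Gmeb1 (r = 0.92 each), the highest values among 22180 genes and described without a test. Among the 10 genes themselves, Ier2 (r = 0.83) and Egr3 (r = 0.82) were closest to that average and Nr4a3 (r = -0.19) was farthest. Each of the 10 is part of the average, and genes of larger spread weigh more in it. Their r values are therefore raised by their own share and are not comparable with those of the 5 outside genes. The log2 differences of the 5 similar genes, KO minus WT, lay between -0.13 (Ppip5k1) and -0.03 (Cinp), with limma adjusted p-values of 0.868 or more.

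Other early genes of the serum response were read against the same background, and 0 of 36 passed. Their means were lower in KO cells for 21 and higher for 15, where 49.3% of all genes were lower, and the median log2 difference was -0.0481. At an unadjusted limma p under 0.05 there was 1 gene of the 36, where 5.98% of all genes reached that level. That gene was Sgk1, a kinase gene induced by serum and glucocorticoids, with means of 6.75 ± 0.13 in KO and 7.07 ± 0.23 in WT cells (SD, n = 5 each) and a difference of -0.32 (limma adjusted p = 0.821; exact permutation p = 0.0238). Sgk1 was named for the smallest limma p of the 36 genes, so its permutation p follows that choice and is no independent test. Socs3, an inhibitor of cytokine receptor signalling, differed by -0.34, but by -0.14 with the mean of its 2 probe sets and by -0.19 without WT array 2. The growth regulator Myc differed by -0.21 and the pseudokinase gene Trib1 by -0.17, or -0.0953 without WT array 3. Socs3, Myc and Trib1 each had an adjusted p of 0.841. The AP-1 subunits, with which these genes are induced, had 5 of 6 means lower, against 49.3% of all genes, and a median of -0.114. Jun differed by -0.19, Fos by -0.20, Fosb by -0.12 and Jund by -0.11, and none passed.

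The factors that act on early gene promoters and the kinases above them differed little. Of 11 promoter factors measured, 9 had a lower mean in KO cells and 0 passed, with a median log2 difference of -0.0338. Of all genes, 49.3% had a lower mean, the share to set beside each count in this paragraph. Serum response factor, Srf, differed by -0.16 (limma adjusted p = 0.842), Creb1 by -0.14, the CREB coactivator gene Crtc3 by -0.11 and the ternary complex factor gene Elk4 by -0.08. In the cascade from Ras to ERK, 9 of the 16 listed genes were measured and 7 of them had a lower mean, with differences between -0.07 (Map2k2) and 0.04 (Map2k1) and a median of -0.0186. Genes of the cytoskeleton that serum response factor also controls had 9 of 13 means higher and 4 lower in KO cells, with a median of 0.0373 and 0 passing. Their mean deviation ran from -0.0165 to 0.0342 on the KO arrays, inside the range from -0.0645 to 0.085 on the WT arrays. Vcl (vinculin) differed by 0.12, Tpm1 by 0.09, Flna by 0.08 and Zyx by -0.09.

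Inhibitors that ERK signalling induces as feedback had lower means in KO cells for all 8 genes measured, against 49.3% of all genes. For these 8 genes the median log2 difference was -0.0674 and 0 passed. Their mean deviation ran from -0.133 to 0.0481 on the KO arrays and from -0.115 to 0.313 on the WT arrays, where WT arrays 5 and 4 were highest and WT arrays 1 and 2 lay within the KO range. Spry2, a Sprouty inhibitor of receptor tyrosine kinase signalling, had means of 8.34 ± 0.14 in KO and 8.59 ± 0.23 in WT cells (SD, n = 5 each), a difference of -0.26 (95% interval from -0.50 to -0.01; limma unadjusted p = 0.0413, adjusted p = 0.83; exact permutation p = 0.0317), which came to -0.15 without WT array 5. Spry2 was named for the smallest limma p of the 8 genes, so its p-values follow that choice and are no independent test. Spry1 differed by -0.19, Spred1 by -0.14 and Spred3 by -0.09, with limma adjusted p-values from 0.842 to 0.893. The other genes of the list lay nearer 0, with Dusp6 at -0.049, Spred2 at -0.045, Spry4 at -0.039 and Dusp4 at -0.017.

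Partners and relatives of the early serum genes had 9 of 11 means lower, against 49.3% of all genes, a median of -0.0745 and 0 passing. Rxra and Rxrb, the retinoid X receptors with which Nr4a1 and Nr4a2 can pair, differed by -0.17 and -0.11. Nab2, a corepressor of Egr proteins that Egr1 itself induces, differed by 0.09, and the p38 kinase gene Mapk14, whose product Dusp1 inactivates, by -0.10. Of 10 messages that Zfp36 is known to bind, 6 had a lower and 4 a higher mean, where 49.3% of all genes were lower. Their median was -0.0917, with 0 passing. Il6 differed by -0.35 (limma unadjusted p = 0.0119, adjusted p = 0.821; exact permutation p = 0.0556) at means of 3.25 ± 0.07 in KO and 3.60 ± 0.28 in WT cells (SD, n = 5 each). Il6 was named for the smallest limma p of the 10 messages, so its p-values follow that choice. Cxcl1 differed by -0.22 (-0.11 without WT array 3), Tnf by -0.19 (-0.0732 without KO array 1) and Il3 by -0.16, and none passed.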

How the data were processed

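The authors deposited log2 expression values, 1 column per array and 1 row per probe set, for 41345 probe sets; the log2 scale was judged from their range of 0.925 to 13.42. Biotin-labelled total RNA was hybridised after the Affymetrix protocol, per the labels, and the summarisation of probes and the normalization of arrays are not given in the sources used here. Probe sets with exactly 1 symbol in the platform annotation were kept (23521), with the highest mean over 10 arrays for each gene, which left 22180 genes. KO minus WT was fitted on all genes with lmFit and eBayes in limma 3.58.1 (R 4.3.3), without covariates, with Benjamini-Hochberg adjustment over all genes and a threshold of 0.05. For single genes an exact permutation test, two-sided, enumerated the 252 choices of 5 of 10 arrays. Correlations have two-sided permutation p-values from 100000 resamples. The fit was tested on simulated data. The genes and lists were chosen with earlier results of these data known. Named genes are the 10 early serum genes, Zbtb4, the 5 most similar genes, passing over gene models and small RNAs, and up to 4 genes of each pathway list by p-value. Macrophage genes named are list extremes or defining markers, chosen after their values were seen. The alternatives were quantile normalization, median centring, leaving out the dimmest 40% of genes, averaging probe sets, eBayes with trend and robust, array weights, a replicate block, a covariate for the level of 3 Y-linked genes, and leaving out each array. Figures were drawn with matplotlib 3.10.9.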

Additional observations from a re-analysis of the deposited data

How the results depend on the processing

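No early serum gene passed under any of the 18 alternatives, and their lowest adjusted p under any was 0.589, for Ier2 without KO array 1. The count with a lower mean in KO cells was 6 or 7, and their median difference stayed negative, from -0.11 to -0.0257. Over all genes, 0 to 1 passed when single arrays were left out (1 without WT array 5), and the groups of arrays separated for 0 to 1 early serum genes (1 without WT array 3, namely Dusp1). Of 48 genes followed, 4 changed direction, each time on leaving out an array, and all with differences near 0: Ier3 ran from -0.10 to 0.0345, Cinp from -0.0741 to 0.0297, Gmeb1 from -0.11 to 0.00718 and Rps6ka3 from -0.12 to 0.00244. Small differences moved by more than 1.5 times in many genes: among those named from the lists, with single arrays left out, Fos ran from -0.37 to -0.12, Fosb from -0.21 to -0.0339, Jun from -0.24 to -0.12, Creb1 from -0.19 to -0.074, Spred1 from -0.18 to -0.067, Rxrb from -0.14 to -0.0402 and Nab2 from 0.0406 to 0.18, and Jund came to -0.0444 with the mean of its probe sets. Egr2, from 0.0526 to 0.34, and Nr4a1, from -0.37 to -0.18, moved most with KO array 3. No pair of early serum genes passed when genotype means were removed (0 of 45). Same-numbered arrays did not deviate together, with correlations from -0.05 to 0.17, and 2 of 5 KO and 1 of 5 WT arrays correlated best with their own number, so the replicate numbers were not taken as pairs; with the replicate block, 0 genes passed and the differences of Nr4a1, Ier2 and Dusp1 were -0.30, -0.24 and 0.27. Dropping the dimmest genes removed Nr4a3 and Il6 and Il3 from the test. Signal over background is not known from the deposited values, which limits most what can be said of Nr4a3, Il6 and Il3.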
